A study of Saccharomyces cerevisiae with 8 samples.

Results

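Gcr1 activates the genes of glycolysis in budding yeast. It binds a short CT-rich motif in their promoters, usually beside a site for Rap1, and works with its partner Gcr2. The GCR1 transcript can keep or lose its intron, and both versions are translated. Gcr1(U) is made from the unspliced message and Gcr1(S) from the spliced message. The data described here are the chromatin sites listed for each form in exponential-phase cultures, 6 h after inoculation. In the Gcr1(U) list there were 299 peaks and in the Gcr1(S) list 233, so that 532 of the series' 1064 peaks were used. Peaks were matched across the lists where they shared at least 1 bp on the same chromosome.

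Both strains were derived from the laboratory strain BY4741 and differed in which form of Gcr1 was made. One carried GCR1U-TAP::his3MX6 and the other GCR1S-TAP::his3MX6, so each Gcr1 form had a tandem affinity purification (TAP) tag. Both also carried GCR2-5Flag::hphMX6, a Flag-tagged version of the partner gene. Cells were grown at 30 °C in 10 mL of rich medium with 2% glucose, fixed with 1% formaldehyde for 25 min, and the tagged protein was recovered on IgG sepharose for chromatin immunoprecipitation sequencing (ChIP-seq). There were 2 replicates per form at 6 h, 4 of the 8 samples, but each form had 1 peak list and no value per replicate. No spread between replicates could therefore be computed. The intervals given below are 95% counting intervals, which cover counting error only and treat PCR copies as separate molecules. No untagged or input library was analysed here, so signal at a site that does not depend on Gcr1 was not measured.

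The lists differed in how far down they reached. The lowest normalized tag count, that is, tags per peak scaled to library size, was 69.6 in the Gcr1(U) list and 107.5 in the Gcr1(S) list, and 161.1 for nuclear Gcr1(S) peaks. The medians were 288.4 and 428.3. Windows were 182 bp for Gcr1(U) and 170 bp for Gcr1(S). The lowest fold over the surrounding local background was about the same in both lists, at 2.00 and 2.01. The peak names carry a number that rises as the score falls on each chromosome. Many low numbers, which belong to the highest scores, are missing. Of the first 10 numbers on each of the 16 nuclear chromosomes, 37.5% were listed for Gcr1(U) and 56.9% for Gcr1(S). Each 6 h list also holds the same places as the 12 h list of its form, and the sources used here do not say how they were matched. A peak that is missing from a list was therefore not necessarily missing from the chromatin at 6 h.

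Of all peaks, 162 were shared, which was 54.2% of the Gcr1(U) list and 69.5% of the Gcr1(S) list. Glycolytic promoters and transfer RNA (tRNA) genes went opposite ways between the forms. At 7 of the 8 shared glycolytic peaks the tag count was lower for Gcr1(S), whereas it was higher for Gcr1(S) at all 81 shared peaks within 500 bp of a tRNA gene. The median ratio of Gcr1(S) to Gcr1(U) over all 162 shared peaks was 1.28, or 0.36 on the log2 scale. Read against that median, the ratio was lower at 8 of 8 glycolytic peaks, higher at 69 and lower at 12 of the 81 tRNA peaks, and lower at 25 of 25 mitochondrial peaks. A ratio of at least 1.5 in favour of Gcr1(S) was found at 20 peaks, a background of 12.3%, and in favour of Gcr1(U) at 26 peaks, a background of 16%. The counting interval of the ratio lay above 1 at 98 peaks (60.5%) and below 1 at 41 peaks (25.3%). Across these peaks the tag counts of the forms had a Spearman correlation of 0.677, which rose to 0.767 over the 137 nuclear ones. The peaks share their libraries and many are tRNA genes of like sequence, so the correlation is a description.

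**Figure D1:**
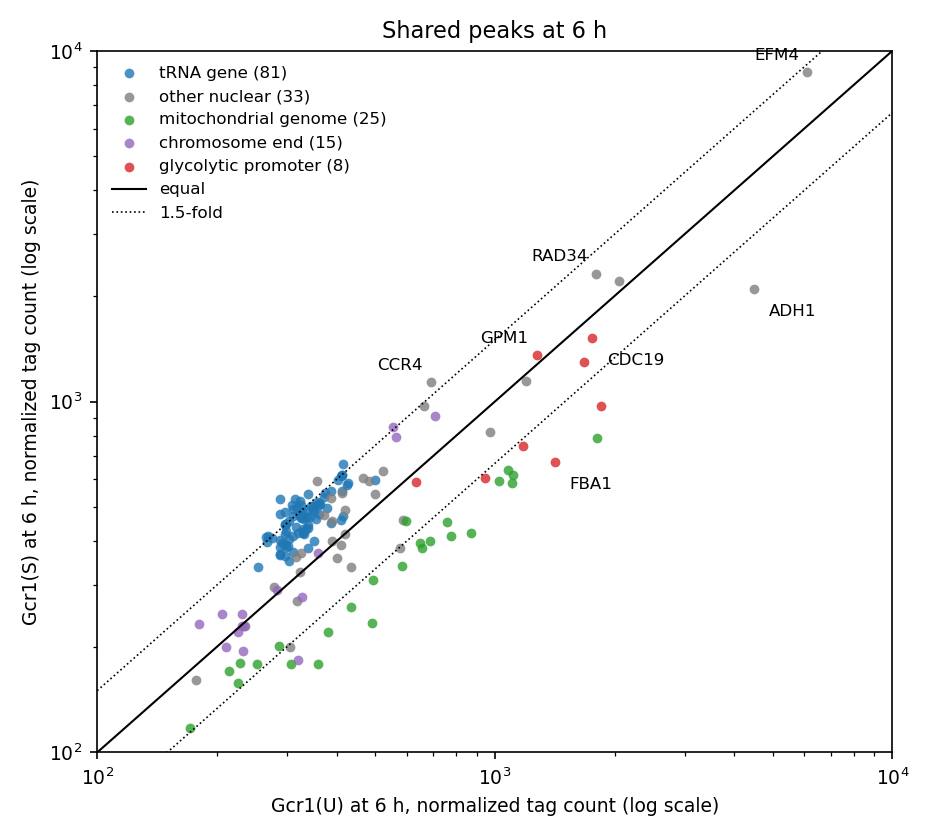
Normalized tag count of each of the 162 shared peaks for Gcr1(U) (x axis) and Gcr1(S) (y axis), both on log scales, coloured by class. The tRNA genes form a tight cloud above the line of equal counts, while 7 of the 8 glycolytic promoters and all 25 mitochondrial peaks lie below it. Against the median ratio of 1.28, 8 of 8 glycolytic promoters and 12 of 81 tRNA genes lie lower.

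The glycolytic promoters, the best known sites of Gcr1, mostly held more tags with Gcr1(U). Shared peaks stood upstream of 8 of the 17 glycolytic genes listed. The log2 ratio of Gcr1(S) to Gcr1(U) had a median of -0.50 there (quartiles -0.72 and -0.19), against 0.36 over all shared peaks. A ratio at least 1.5-fold in favour of Gcr1(U) was found at 4 of the 8, and at none in favour of Gcr1(S). Over all 162 shared peaks it was found in favour of Gcr1(U) at 26 (16%). The spread among them was wide. The standard deviation of the log2 ratio was 0.41 over the 8 promoters, where counting error alone would give 0.057.

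FBA1, which encodes fructose-bisphosphate aldolase, showed the widest gap of the glycolytic genes. Its peak at chromosome XI, 327829 to 328011 (sacCer3), had 1417.3 normalized tags for Gcr1(U) and 672.7 for Gcr1(S), a ratio of 0.475 (interval 0.436 to 0.517). At PFK2, the beta subunit of phosphofructokinase, the tag counts were 1853.6 and 972.9 (ratio 0.525, interval 0.488 to 0.564). ENO2, an enolase gene, followed with 1178.5 and 747.6 (ratio 0.634, interval 0.583 to 0.690). The main glyceraldehyde-3-phosphate dehydrogenase gene, TDH3, had 942.4 and 607 (ratio 0.644, interval 0.586 to 0.707). These 4 are enzymes of separate steps of the pathway, and their intervals lay well under 1.

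The other 4 promoters were closer to equal. PGI1, the phosphoglucose isomerase gene at the head of the pathway, had 1673.7 tags for Gcr1(U) and 1297.9 for Gcr1(S), a ratio of 0.775 (interval 0.726 to 0.828). CDC19, the pyruvate kinase gene, had 1760 and 1516.7 (ratio 0.862, interval 0.810 to 0.917). At PGK1, phosphoglycerate kinase, the counts of 634.1 and 589.8 could not be separated by counting error (ratio 0.930, interval 0.839 to 1.03). GPM1, phosphoglycerate mutase, was the 1 glycolytic peak with a higher count for Gcr1(S), at 1273.5 and 1357 (ratio 1.07), though under the median ratio of all shared peaks, and its interval of 0.995 to 1.14 also held 1. The difference between forms thus ran from about equal to a ratio under 0.5 within a single pathway.

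The fold over local background, which each library measures against its own surroundings, gave the same order of forms as the tags at 7 of these 8 promoters, GPM1 being the exception. It was lower for Gcr1(S) at 8 of 8, with medians of 6.25 for Gcr1(U) and 4.20 for Gcr1(S), while over all shared peaks it was higher for Gcr1(S) at 131 (80.9%). At FBA1 it was 5.43 and 2.85, and at TDH3 4.33 and 2.65. TPI1, triosephosphate isomerase, was listed for Gcr1(S) only, with 491.6 tags and a fold of 2.18, close to the limit of that list. No peak of either list was assigned to the remaining 8 glycolytic genes, HXK1, HXK2, GLK1, PFK1, TDH1, TDH2, ENO1 and PYK2.

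**Figure D2:**
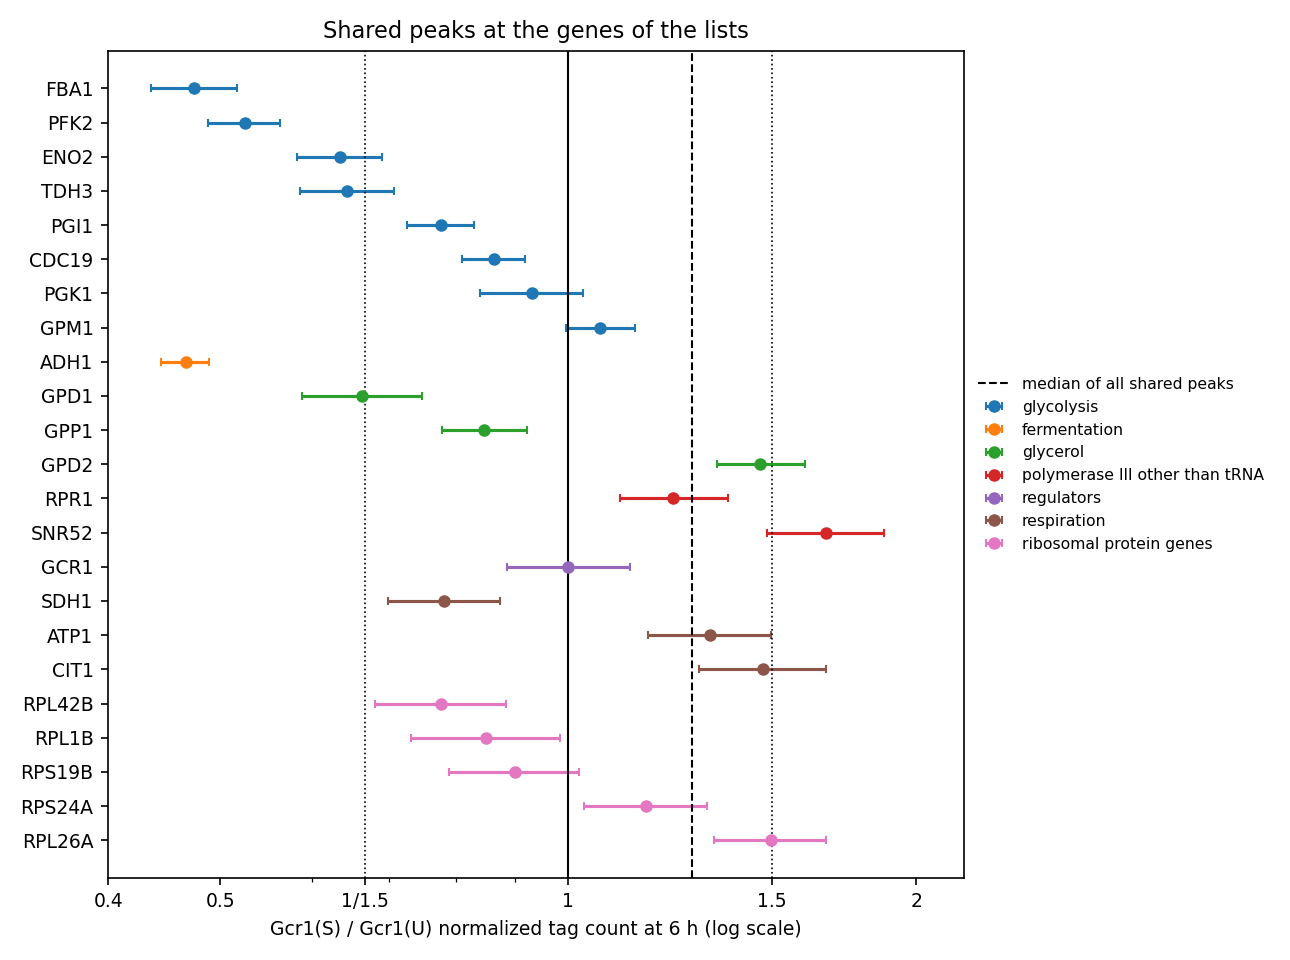
Ratio of Gcr1(S) to Gcr1(U) normalized tag count (log axis) at shared peaks of the listed genes, with bars for the 95% counting interval. The dashed line is the median ratio of all shared peaks, 1.28, and the dotted lines mark 1.5-fold in each direction. ADH1, FBA1 and PFK2 lie furthest to the Gcr1(U) side, at 0.467, 0.475 and 0.525, and SNR52 furthest to the Gcr1(S) side, at 1.67.

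Beyond glycolysis, the promoter of ADH1, the alcohol dehydrogenase that turns acetaldehyde into ethanol in fermenting cells, held a peak that ranked next to EFM4 among nuclear sites for Gcr1(U), and below EFM4, RAD34 and CIS1 for Gcr1(S). It had 4497.4 tags for Gcr1(U) and 2099 for Gcr1(S), a ratio of 0.467 (interval 0.445 to 0.489), the lowest of all shared nuclear peaks. The window at chromosome XV, 161195 to 161377, lay 692 bp upstream of the ADH1 start, and the centre for Gcr1(S) was 26 bp closer to the gene. The fold over local background was much less apart than the tags, at 8.18 and 7.33. PDC1, the main pyruvate decarboxylase gene, was listed for Gcr1(S) only, with 486 tags. No peak was assigned to the other 6 genes of the fermentation list, PDC5, PDC6, ADH2, ADH3, ADH4 and ADH5.

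The glycerol pathway branches off glycolysis, and 3 of its 4 genes had shared peaks with unequal ratios. GPD1, a glycerol-3-phosphate dehydrogenase gene that responds to osmotic stress, had 578.1 tags for Gcr1(U) and 383.6 for Gcr1(S) (ratio 0.664, interval 0.589 to 0.747). Its paralog GPD2 went the other way, with 661.7 and 969.7 (ratio 1.47, interval 1.34 to 1.60). GPP1, a glycerol-1-phosphatase gene, had 970.7 and 821.2 (ratio 0.846, interval 0.777 to 0.921). The paralogs GPD1 and GPD2 thus had intervals on opposite sides of 1. No peak was assigned to GPP2.

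GCR1 itself had a peak 181 bp upstream of its start with the same tag count for both forms, 420.3 for Gcr1(U) and 420.4 for Gcr1(S) (ratio 1.00, interval 0.885 to 1.13). Of the other regulators listed, GCR2, RAP1, TYE7, ABF1 and REB1, none had a peak in either list. The growth and glucose signalling genes had 3 peaks among 9 genes, all for Gcr1(S) only. As a background, 30.5% of all Gcr1(S) peaks were unshared. Among its nuclear peaks outside glycolysis, tRNA genes and chromosome ends, the class of these 3, the share was 48.4%. The 3 peaks stood at BMH1, a 14-3-3 protein gene (384.5 tags), at GPR1, which encodes the glucose-sensing receptor (375.7 tags), and at WHI5, which encodes a repressor of entry into S phase (367.8 tags). Their folds over local background ran from 2.26 to 2.53, near the limit of both lists.

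Among 7 respiration genes, 3 had shared peaks. SDH1, a succinate dehydrogenase subunit gene, had 586.8 tags for Gcr1(U) and 458.5 for Gcr1(S) (ratio 0.781, interval 0.698 to 0.873), yet a higher fold for Gcr1(S), at 2.14 and 3.29. The tags and the local fold thus gave opposite orders there. The peaks assigned to CIT1 (ratio 1.47) and ATP1 (ratio 1.33) lay at tRNA genes, and SOD2 was listed for Gcr1(S) only, with 443.6 tags. Of the 138 ribosomal protein genes, 5 had shared peaks, 2 had a Gcr1(U) peak only, 2 a Gcr1(S) peak only and 129 none. The 5 shared ratios ran from 0.776 at RPL42B to 1.5 at RPL26A, whose peak lay at a tRNA gene. The paralogs RPL2A (413.6 tags, Gcr1(U) only) and RPL2B (416.6 tags, Gcr1(S) only) were each listed for a different form, with folds of 2.40 and 2.22.

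At the tRNA genes the forms differed by a small and even amount. The median tag count over the 81 shared peaks was 327 for Gcr1(U), with a range of 253.4 to 499.5, and 467 for Gcr1(S), with a range of 338 to 662.4. The ranges overlapped, but peak by peak the count was higher for Gcr1(S) at 81 of 81, and the log2 ratio had a median of 0.50 (quartiles 0.39 and 0.58). The standard deviation of the log2 ratio was 0.14, above the 0.092 that counting error alone would give. It was well under the 0.41 at glycolytic promoters. At least 1.5-fold more tags for Gcr1(S) were found at 17 of the 81, out of 20 such peaks among all 162 shared ones (12.3%). With ratios centred on the median of all shared peaks, 0 of the 162 passed that limit.

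The widest gap at a tRNA gene was at YNCC0010C, with 288.7 tags for Gcr1(U) and 527.9 for Gcr1(S) (ratio 1.83, interval 1.61 to 2.08). HSX1, an arginine tRNA gene, had 314.7 and 528.8 (ratio 1.68). YNCO0005W had 287.4 and 477.6 (ratio 1.66). The narrowest was at YNCH0015W, with 410.3 and 460.4 (ratio 1.12, interval 0.994 to 1.26). Many tRNA genes sat near the 1.5-fold limit, and YNCK0019W (298.0 and 447.8) was just past it. The fold over local background was low at these genes for both forms, with medians of 2.27 and 3.08, and it was higher for Gcr1(S) at 78 of 81. For Gcr1(U), 57 of the 81 had a fold under 2.5, against 6 for Gcr1(S). Because tRNA genes were 81 of the 162 shared peaks, they set much of the median that other classes are read against: on that centring, their own median log2 ratio was 0.14.

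Of 275 nuclear tRNA genes, 81 had a peak for both forms, 17 for Gcr1(U) only, 37 for Gcr1(S) only and 140 for neither. The 17 genes with a Gcr1(U) peak only had 212.1 to 357 tags and a median fold of 2.11. The 37 with a Gcr1(S) peak only had 344 to 521.4 tags and a median fold of 2.65. In each form the unshared tRNA peaks had tag counts among those of the shared ones or below them, and none had a count above. By fold, and picked out after their values were seen, YNCL0037W for Gcr1(U) (3.51) and YNCL0038W for Gcr1(S) (4.80) were above every shared tRNA peak, which reached 3.35 and 4.56.

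Other genes read by RNA polymerase III were few and did not move as one. SNR52, which encodes a small nucleolar RNA, had 356.3 tags for Gcr1(U) and 595.4 for Gcr1(S) (ratio 1.67, interval 1.49 to 1.88). RPR1, the RNA subunit of RNase P, had 482.2 and 594.5 (ratio 1.23, interval 1.11 to 1.37). SCR1, whose RNA is part of the signal recognition particle, was listed for Gcr1(U) only at 943.1 tags and a fold of 3. SNR6, the U6 spliceosomal RNA gene, was listed for Gcr1(S) only at 588 tags and a fold of 3.47. SCR1 and SNR6 were the highest unshared peaks of their lists, and both had counts well over the lowest value of the other list. RNA170 had no peak.

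The highest peak of both lists lay inside EFM4, which encodes a protein methyltransferase, at chromosome IX, 242110 to 242292. It had 6109.5 tags for Gcr1(U) and 8687.1 for Gcr1(S) (ratio 1.42, interval 1.38 to 1.46), with both centres at the same base. Its fold over local background was 7.98 for Gcr1(U) and 45.33 for Gcr1(S), a gap far wider than that of the tags. RAD34, a DNA repair gene, held an internal peak of the same kind, with 1800.6 and 2312.3 tags (ratio 1.28) and folds of 6.11 and 16.7. The peak at CIS1 had 2051.4 and 2203.3 tags (ratio 1.07) and folds of 6.89 and 14.62. That at YGL081W had 1196.9 and 1147 tags (ratio 0.958) and folds of 5.47 and 8.77. At these 4 high sites outside glycolysis the local fold was thus higher for Gcr1(S) even where the tags were about equal. That was also the order at 131 of all 162 shared peaks (80.9%), though not at the 8 glycolytic promoters. ADH1, the other of the highest sites outside glycolysis, had a lower fold for Gcr1(S), at 8.18 and 7.33.

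The 33 shared peaks outside glycolysis, tRNA genes and chromosome ends differed little on balance (median log2 ratio 0.10, quartiles -0.13 and 0.35), with 21 higher for Gcr1(S) and 12 lower, though 25 of 33 were lower against the median of all shared peaks. Past 1.5-fold were SNR52 and the peak near CCR4 and FUN30 for Gcr1(S), and ADH1, GPD1 and the peak near SSA1 and EFB1 for Gcr1(U). SSA1 encodes an Hsp70 chaperone and EFB1 a translation elongation factor, and the latter peak had 305.0 and 199.7 tags (ratio 0.655). The CCR4 and FUN30 peak, near the genes of a deadenylase and a chromatin remodeller, had 692.3 and 1136.8 tags (ratio 1.64, interval 1.51 to 1.79). This class held both directions, unlike the tRNA genes.

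Within 10 kb of a chromosome end there were 15 shared peaks with a median log2 ratio of 0.03, of which 8 were higher for Gcr1(S) and 7 lower, or 4 and 11 against the median of all shared peaks. The lowest ratio there was at YRF1-5, a helicase gene of the Y′ element, with 319.7 and 183.9 tags (ratio 0.575, interval 0.486 to 0.682). The mitochondrial genome had 25 shared peaks, and the count was higher for Gcr1(U) at 25 of 25 with a median log2 ratio of -0.77. Gcr1(U) was at least 1.5-fold higher at 18 of them, out of 26 such peaks among all 162 shared ones (16%). Their fold over local background gave the opposite order, with medians of 3.53 and 3.79 and a higher value for Gcr1(S) at 20 of 25. The glycolytic and mitochondrial tag counts moved the same way between the forms. The local fold was lower for Gcr1(S) at 8 of 8 glycolytic peaks and at 5 of 25 mitochondrial ones. Over all 162 shared peaks it was higher for Gcr1(S) at 131. The part of mitochondrial or other background reads in the glycolytic difference was not tested.

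The focus ratio is HOMER's measure of how sharply a peak is centred: the fraction of tags that lie on the side of the centre where their strand should put them. It was higher for Gcr1(S) at 120 of 162 shared peaks (74.1%), with medians of 0.659 for Gcr1(U) and 0.693 for Gcr1(S). The median difference was small, at 0.0265. A difference of at least 0.1 in favour of Gcr1(S) was found at 4 peaks (2.47%), and in favour of Gcr1(U) at 0 (0%). The counting interval of the difference lay above 0 at 31 peaks (19.1%) and below 0 at 3 (1.85%).

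Those 3 were all glycolytic promoters. At FBA1 the focus ratio was 0.791 for Gcr1(U) and 0.740 for Gcr1(S), at TDH3 0.766 and 0.717, and at ENO2 0.819 and 0.786. Each is also a gene at which the tag count was lower for Gcr1(S). The ENO2 interval ended just under 0, at -0.0004. Differences were wider than that of ENO2 at YNCE0018W, RPL42B and RPR1, where tag counts were lower and intervals held 0. PFK2, whose tag ratio was also low, had 0.815 in both, and CDC19 (0.823 and 0.855) and GPM1 (0.817 and 0.846) were sharper for Gcr1(S). The glycolytic promoters thus held both directions.

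At ADH1 the focus ratio was 0.793 for Gcr1(U) and 0.886 for Gcr1(S), although the tag count was lower for Gcr1(S). The tRNA genes were sharper for Gcr1(S) at 69 of 81, with a median difference of 0.033. Among nuclear peaks, the widest differences in favour of Gcr1(S) were at FLO5, a flocculin gene (0.663 and 0.774), at the tRNA gene YNCH0016C (0.666 and 0.770) and at HPF1, a mannoprotein gene (0.887 and 0.988). After FBA1 and TDH3, the widest nuclear ones in favour of Gcr1(U) were at YNCE0018W (0.646 and 0.605), RPL42B (0.682 and 0.642) and RPR1 (0.671 and 0.632), and their counting intervals held 0. A mitochondrial peak at Q0255, named after its value was seen, had a wider difference than FLO5, with 0.657 and 0.780. Several of the sharpest shared peaks lay at repeated sequences: YRF1-5 had 0.998 and 0.992, and YHR054C, beside the CUP1 array, had 0.967 and 0.954 with folds of 84.72 and 221.45. Reads at such loci can be placed at more than 1 copy, and the sources used here do not say how they were placed.

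**Figure D3:**
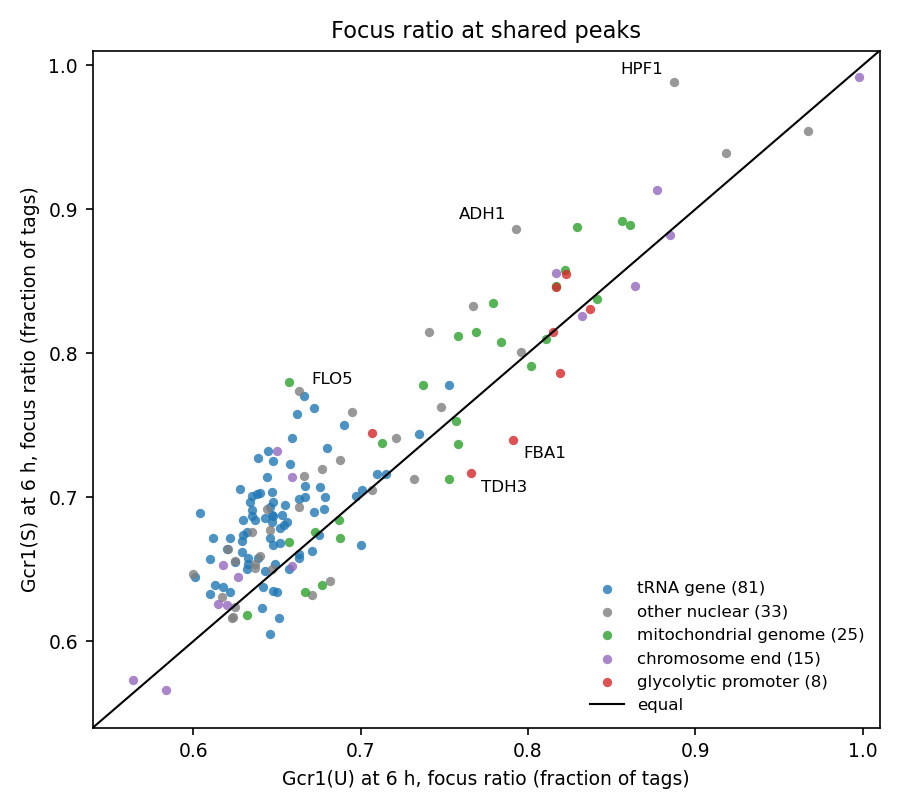
Focus ratio (fraction of tags on the matching side of the centre) of each of the 162 shared peaks for Gcr1(U) (x axis) and Gcr1(S) (y axis), coloured by class, with a line of equality. Most tRNA genes lie just above the line, while FBA1, TDH3 and ENO2 lie below it and ADH1 lies above it, at 0.793 and 0.886.

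Promoter peaks of the forms stood at nearly the same place, whereas tRNA, chromosome end and mitochondrial peaks lay further apart. The centres of matched peaks were a median of 18.5 bp apart, with 85 of 162 within 20 bp (52.5%). At the 8 glycolytic promoters the median distance was 6 bp and the largest 17 bp, so that 8 of 8 were within 20 bp. At the 81 tRNA genes the median was 28 bp and 33 were within 20 bp. The wider distance was not particular to tRNA genes, as the median was 28 bp at chromosome ends and 23 bp at mitochondrial peaks. Over the 35 shared glycolytic and other nuclear peaks with the same nearest gene start, the Gcr1(S) centre was displaced by a median of -2 bp along the gene, upstream at 18 and downstream at 15.

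At tRNA genes the displacement had a direction. Counted from the 5′ end of the gene, the Gcr1(U) centre lay at a median of 48 bp (quartiles 36 and 67) and the Gcr1(S) centre at 24 bp (quartiles 10 and 39), in genes of a median length of 73 bp. The Gcr1(S) centre was upstream of the Gcr1(U) centre at 62 genes, downstream at 18 and at the same base at 1, with a median shift of -21 bp. The shift was -23 bp for the 33 genes on the forward strand and -19 bp for the 48 on the reverse strand, so it followed the gene and not the coordinate axis. The tRNA peaks of one form only were placed alike, at a median of 61 bp for the 17 of Gcr1(U) and 23 bp for the 37 of Gcr1(S). The largest distances between nuclear centres were 112 bp at YNCM0035C, 110 bp at YNCN0012C, 104 bp at YNCB0002W and YNCN0015W, and 90 bp at the left end of chromosome XI.

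This order of positions did not recur at 12 h. In the lists of that time, at the same 81 genes, the Gcr1(U) centre lay at a median of 36 bp and the Gcr1(S) centre at 46 bp. Replicate spread of a centre was not measured, and the part of library differences in the shift was not tested.

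**Figure D4:**
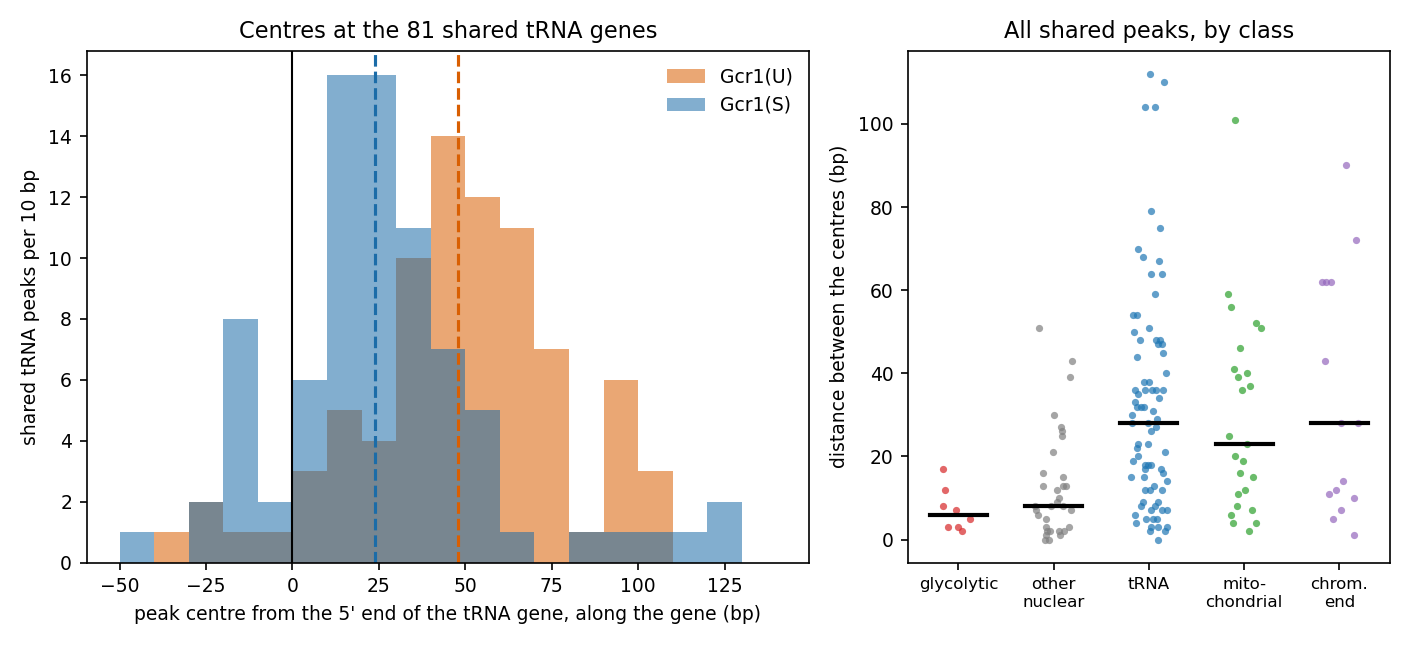
Left, number of shared tRNA genes by the position of the peak centre in bp from the 5′ end of the gene, for each form, with dashed lines at the medians of 48 bp for Gcr1(U) and 24 bp for Gcr1(S). Right, distance in bp between the matched centres by class, with bars at the medians. These are 6 bp for glycolysis, 28 bp for tRNA genes, 23 bp for mitochondrial peaks and 28 bp for chromosome ends.

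The 137 peaks of Gcr1(U) only (45.8% of its list) were mostly low, and many lay toward chromosome ends. Within 30 kb of an end lay 81 of the 137, and shared peaks were not counted at that distance. Within 10 kb there were 46 of the 137 (33.6%), against 15 of the 162 shared peaks. The 46 were 75.4% of the 61 Gcr1(U) peaks there. Another 72 were elsewhere in the nuclear genome, 17 at tRNA genes, 2 in the mitochondrial genome and 0 at glycolytic promoters. Their median tag count was 136.9, with a range of 69.6 to 943.1. Of these peaks, 45 lay under the lowest tag count of the Gcr1(S) list, and 83 of the 135 nuclear ones lay under its lowest nuclear value of 161.1. Those low peaks cannot be told apart from sites that the Gcr1(S) list did not reach.

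Gene families of the chromosome ends, picked after their values were seen, recurred in this group. The FLO flocculin genes had 8 peaks of Gcr1(U) only, 0 of Gcr1(S) only and 1 shared. The HXT hexose transporter genes had 6, 0 and 0, the PAU genes 8, 0 and 0, and the COS genes 5, 0 and 0. The YRF1 helicase genes, also at chromosome ends, were divided, with 3, 1 and 2. The SSA and SSB genes of the Hsp70 chaperones, which are not a family of the ends, had 7, 0 and 1. As a background, 45.8% of all Gcr1(U) peaks were unshared, and 75.4% of those within 10 kb of an end. Among its nuclear peaks outside glycolysis, tRNA genes and chromosome ends the share was 68.6%. Members of these families share sequence, and the tag counts of their peaks of Gcr1(U) only, from 69.6 to 216.8, were low. The median focus ratio of the 137 was 0.682, against 0.663 over the whole Gcr1(U) list. A focus ratio of at least 0.85 was seen at 26 of the 137, of which 21 lay within 30 kb of an end, as did 81 of all 137. The share of the whole list at 0.85 or more was not counted. Shared peaks, such as those at YRF1-5 and YHR054C, also passed that value in both forms.

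The few high peaks of Gcr1(U) only were of other kinds. After SCR1 came RPL2A with 413.6 tags, and RPL11A with 324.7, whose window is upstream of that ribosomal protein gene and of PRE2, a proteasome subunit gene. The rest of the 10 highest were tRNA genes, namely YNCE0013W (357.0 tags), YNCN0006W, YNCE0005W, YNCM0010W, YNCF0014C, IMT2 and YNCD0022C (318.4). IMT2 is an initiator methionine tRNA gene. At these sites the tag counts were above the lowest of the Gcr1(S) list, but those of Gcr1(S) were not listed, so no ratio can be given.

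The 71 peaks of Gcr1(S) only (30.5% of its list) were of middle height and held no group at chromosome ends. There were 37 at tRNA genes, 31 elsewhere in the nuclear genome, and 1 each at a glycolytic promoter, a chromosome end and the mitochondrial genome. Their median tag count was 402.7, with a range of 107.5 to 588, and 0 of 71 lay under the lowest Gcr1(U) tag count. Their fold over local background was low, with a median of 2.58 and a highest value of 4.80, and 29 of 71 were under 2.5. The Gcr1(U) list ended at a fold of 2.00, and 57 of its 81 shared tRNA genes had a fold under 2.5, so a site missing from it cannot be told apart from one just under that limit. The highest after SNR6 were the tRNA genes YNCN0010C (521.4 tags), YNCN0017W, YNCN0004W and SUF9, then TPI1, YNCJ0029W, PDC1, SUF23 and YNCD0009W (478.1). The median focus ratio of these 71 was 0.643, against 0.678 over the whole Gcr1(S) list. It was at least 0.85 at 0 of the 71, and the share of the whole list at that value was not counted.

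The unshared peaks were seldom near misses. Of the 137 peaks of Gcr1(U) only, 1 lay within 500 bp of a Gcr1(S) peak, and likewise 1 of the 71 of Gcr1(S) only. These lay 15 bp apart near YRF1-1 at the end of chromosome IV, with 207.1 and 244.9 tags, and the next nearest Gcr1(U) peak was 543 bp from one of Gcr1(S). In the 12 h list of the other form, 0 of 137 and 1 of 71 were found. That list holds the same places as the 6 h list of its form, so it is no separate check.

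**Figure D5:**
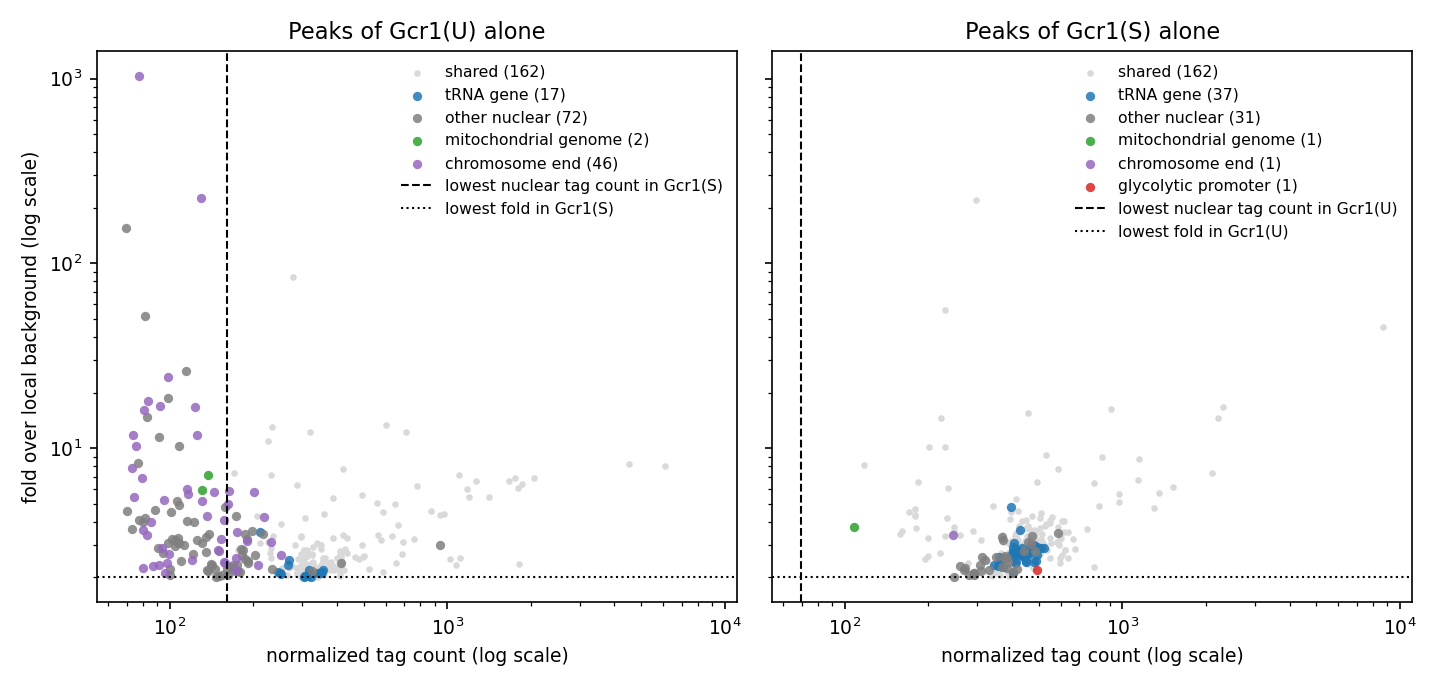
Normalized tag count (x axis) and fold over local background (y axis), both on log scales, of the peaks of Gcr1(U) only and of Gcr1(S) only, with shared peaks in grey. The dashed line is the lowest nuclear tag count and the dotted line the lowest fold of the other form. Many Gcr1(U) peaks lie left of 161.1, whereas the Gcr1(S) peaks lie at 107.5 to 588 tags and at folds of 2.01 to 4.80.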

How the data were processed

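The 4 groups of ChIP-seq libraries were deposited as peak lists, and the lists of both forms at 6 h are described. The submitters' processing notes name the build sacCer3 and, with no roles, HOMER, bedtools, Picard 2.92, BWA 0.7.15, FastQC 0.10.1 and bcl2fastq 1.8.2. The sources used here do not say how replicates were combined. Per the file headers, the signal of a peak is a normalized tag count from HOMER findPeaks. The same headers give a focus ratio, deposited as a fraction. The deposited score ranks the peaks, and the deposited fold is a ratio over the local background. The p-value deposited by the authors was not used here, nor was the clonal fold change.

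Peaks were matched by at least 1 bp of overlap, and classed as mitochondrial, glycolytic, tRNA (within 500 bp), chromosome end (within 10 kb) or other. A gene was assigned where the centre lay from 1000 bp upstream to 200 bp downstream of its start, with gene names and positions from the RefSeq R64 table. Tag counts lay on a grid of 0.333 units (Gcr1(U)) and 0.466 units (Gcr1(S)), with 100% of values within 0.05 of a step where chance gives 30.0% and 21.5%. The step was taken as 0.5 tags, so 1 unit stood for 1.5 and 1.07 tags. Exact binomial intervals of ratios and Newcombe intervals of focus differences used these recovered tags and assume that step, and the headers name no scale. The ratio intervals were tested on simulated data, and the intervals of focus differences were not. Peaks are not replicates, so no p-value was computed. Python 3.11.15, pandas 2.3.3, numpy 2.4.6 and scipy 1.17.1 were used. Members, gene lists and limits were chosen with earlier results of these data known. Named peaks are those of the gene lists, among shared nuclear peaks the 10 highest, the 5 extreme ratios and focus differences each way and the 5 largest centre distances, and the 10 highest unshared peaks of each form.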

Additional observations from a re-analysis of the deposited data

How the results depend on the processing

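No paired analysis was possible because the lists hold no value per replicate, and leaving out each replicate was not run for the same reason. The counts of 1.5-fold differences depended on scaling. With ratios centred on the median of all shared peaks, 0 peaks were at least 1.5-fold higher for Gcr1(S) and 40 were lower, against 20 and 26 as reported. At 2-fold they were 0 and 6. Per bp of window 47 were higher, and by local fold 4 were lower. The class medians, on the log2 scale, moved as follows. For glycolysis they were -0.86 (centred on all shared peaks), -0.89 (centred on nuclear peaks), -0.40 (per bp) and -0.40 (local fold). For tRNA genes they were 0.14, 0.10, 0.59 and 0.41 in the same order, and 0.53 in the upper 50% by score. For other nuclear peaks they were -0.25, -0.29, 0.20, 0.35 and 0.30. For chromosome ends they were -0.32, -0.36, 0.13, 0.41 and 0.49. As reported, the medians of other nuclear peaks and chromosome ends were 0.10 and 0.03, so both centrings changed their sign. For mitochondrial peaks the medians were -1.13, -1.17 and -0.68, and the local fold reversed the direction to 0.11. The cause was not tested. In the upper 50% by score 92 peaks were shared. Of the peaks of Gcr1(U) only, 20 lay under the Gcr1(S) limit after scaling by the median ratio, 0 by local fold and 83 by the lowest nuclear peak, an alternative chosen after seeing the data. Glycolysis stayed under 0 and tRNA genes over 0 in each alternative run. The focus ratio, the centre distances and the tRNA shift (-23 bp in the upper 50% by score) moved little. With 1 list a form, no replicate error stands behind any of these values.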
